A study of Caenorhabditis elegans with 7 samples.

Results

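The genes described here are 10 triglyceride lipase genes of C. elegans, the lysosomal lipases lipl-1 to lipl-8 and the cytosolic lipases atgl-1 and hosl-1. They were chosen by gene name among the 46778 genes of the deposited table, and all 10 were found. The RNA came from whole L4 larvae, and the background of both groups was N2, the wild type used in most worm laboratories. The comparison asked how selection for late progeny altered the transcriptome, here at the genes that break down stored fat. WT Late animals, with 4 libraries, descended from N2 through at least 50 generations in which progeny laid on the third day of adulthood founded the next generation. WT animals, with 3 libraries, were N2 without selection. Both groups had the same food, concentrated OP50 bacteria on plates with streptomycin, and a synchronized start at the L1 stage. No source used here says that the WT Late libraries came from separately selected populations, so the p-values measure the spread between these libraries.

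Triglyceride is the storage fat of the worm and is held in lipid droplets, mainly of the intestine and epidermis. Lipases release fatty acids from it along separate routes. ATGL-1, the worm adipose triglyceride lipase, and HOSL-1, a relative of hormone-sensitive lipase, act in the cytosol. The LIPL proteins are relatives of human lysosomal acid lipase and digest lipid delivered to the lysosome. Transcription of several lipl genes is known to respond to food, with the factor HLH-30 activating them in fasted worms and MXL-3 repressing lipl-1 and lipl-3 in fed worms. LIPL-4 is known for lengthening life when overproduced in the intestine, through the fatty acid chaperone LBP-8 and the nuclear receptors NHR-49 and NHR-80.

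Levels are given as rescaled FPKM, which is the deposited FPKM (reads per kilobase of gene, scaled to library size) divided by 1 factor for each library. Log2 fold changes are of WT Late over WT on the log2 of rescaled FPKM plus 0.5, a scale that understates changes of low genes. Adjusted p-values are from limma with Benjamini-Hochberg adjustment over 13194 tested genes, and genes under 0.05 were called. The libraries held between 17553893 and 20961698 reads on genes. WT Late replicate 2 had a read on 11069 genes, against 14418 to 18490 in the other WT Late libraries and 15723 to 16297 in WT libraries. WT Late replicate 3 stood apart, with Spearman correlations of 0.78 to 0.798 with the other WT Late libraries and of 0.835 to 0.875 with WT libraries.

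Of the 10 lipase genes, lipl-2 was called lower in WT Late animals and 0 were called higher. Across all tested genes 0.849% were called, 0.182% lower and 0.667% higher. The log2 fold changes of the 9 tested lipases ran from -3.32 for lipl-2 to 2.28 for lipl-3. The lower end held lipl-1 and lipl-2 and the upper end lipl-3 and lipl-4, so values of both signs stood within the lysosomal family. The groups did not overlap for 4 genes, lipl-1 and lipl-2 below WT and lipl-3 and lipl-4 above it, while groups did not overlap for 9.75% of all tested genes (5.09% below WT and 4.67% above it). The same 4 genes had an unadjusted p under 0.05 in limma, as did 8.89% of all tested genes (4.81% lower and 4.08% higher). This count is not support for the family as a whole, because lipl-3 and lipl-4 passed the filter on low values (3 or more libraries with an FPKM of 0.5 or higher) through WT Late libraries alone, and lipl-1 would have passed through the WT libraries alone. The gene lipl-8 (WBGene00013050, chromosome V from 14745684 to 14748708, minus strand) had 0 reads in all 7 libraries and was not tested. A count of 0 allows up to 3 reads, or a rescaled FPKM of 0.0571 to 0.239 for lipl-8 depending on the library. The median log2 fold change was 0.37 over the 9 tested lipases and -0.13 over all tested genes. The lipase median includes lipl-3 and lipl-4, which the filter selects for higher WT Late levels, so it is description only. After quantile normalization the median over all tested genes was -0.01.

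**Figure D1:**
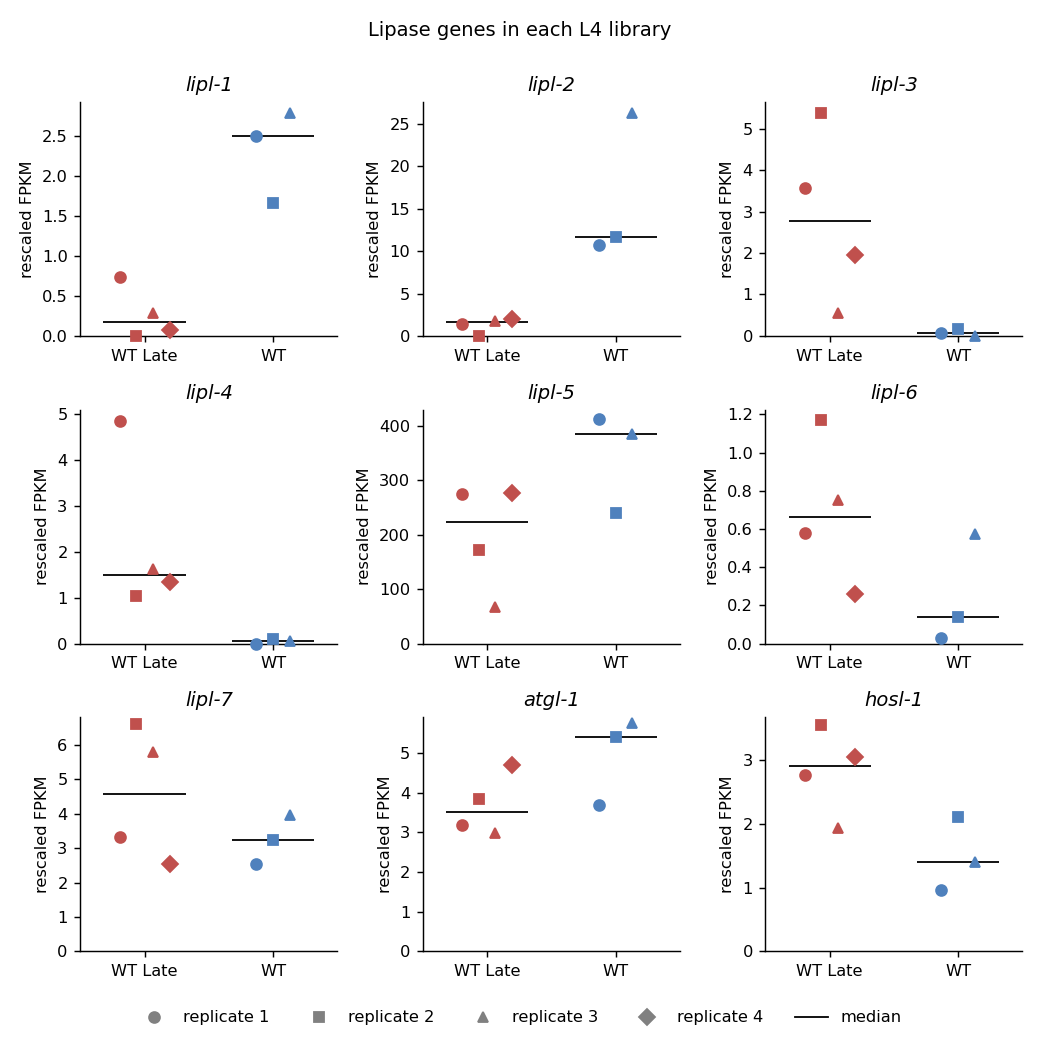
Rescaled FPKM (linear axes from 0) of the 9 lipase genes with reads, in the 4 WT Late libraries (left of each panel) and the 3 WT libraries (right); each symbol is a library and the line is the group median. For lipl-1 and lipl-2 every WT Late library lay below every WT library, and for lipl-3 and lipl-4 every one lay above.

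The gene lipl-2 (WBGene00009773) encodes a lysosomal lipase and is deposited at chromosome V from 9791567 to 9793234 (plus strand, 5 exons in the WBcel235 annotation). It had a rescaled FPKM of 1.47, 0, 1.76 and 2.05 in WT Late replicates 1 to 4, against 10.8, 11.7 and 26.3 in WT replicates 1 to 3. Behind these values were 35, 0, 97 and 27 reads in WT Late libraries and 247, 345 and 761 reads in WT libraries. The highest WT Late library was therefore at 0.191 of the lowest WT library. On the log2 scale lipl-2 was lower by a fold change of -3.32 (standard error 0.60, adjusted p = 0.0228 from limma), and it ranked 83 among all tested genes by p. With the library labels permuted in an exact, two-sided test p was 0.0286, the smallest that 4 against 3 libraries can give. The direction held in all 17 alternatives, with values between -4.34 and -2.78.

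The call of lipl-2 depends on single libraries. In limma the adjusted p was 0.0666 when WT Late replicate 1 was left out, and 0.112, 0.0687 and 0.212 when WT replicates 1, 2 and 3 were. The value of 0 in WT Late replicate 2 stood among many such values. From the other WT Late libraries 35.3 reads were expected there, and of 2047 genes with expected reads within 1.5 times that number, 36.6% had 0 reads in this library. In the other WT Late libraries between 0.425% and 5.00% of such genes had 0 reads. Without WT Late replicate 2 the log2 fold change of lipl-2 was -2.78 (adjusted p = 0.0213 from limma), and without WT Late replicate 3 it was -3.50 (adjusted p = 0.0099).

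The gene lipl-1 (WBGene00010062), a lysosomal lipase gene known from the fasting response, is deposited at chromosome V from 12919952 to 12921692 (plus strand, 5 exons). Its rescaled FPKM was 0.738, 0, 0.285 and 0.0703 in WT Late replicates 1 to 4, against 2.50, 1.66 and 2.78 in WT replicates 1 to 3. These were 19, 0, 17 and 1 reads in WT Late libraries and 62, 53 and 87 reads in WT libraries. All WT Late libraries thus lay below all WT libraries, at a depth where the WT Late values rest on few reads. A log2 fold change of -1.93 (standard error 0.49) missed the threshold, with an adjusted p of 0.132 from limma. The exact permutation test gave p = 0.0286. As for lipl-2, the 0 in WT Late replicate 2 was shared by many genes, since 78.5% of those of like expected level had 0 reads there. Without WT Late replicate 3 the adjusted p of lipl-1 was 0.045 (log2 fold change -1.97), and without WT Late replicate 2 it was 0.190 (-1.75), both from limma. The adjusted p of lipl-1 was 0.156 to 0.628 with each of the other 6 libraries left out, WT Late replicate 2 among them.

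The gene lipl-3 (WBGene00020016), the other fasting-induced lipase under MXL-3, is deposited at chromosome V from 521702 to 524218 (minus strand, 7 exons). It had a rescaled FPKM of 3.56, 5.38, 0.553 and 1.96 in WT Late replicates 1 to 4, against 0.0831, 0.161 and 0 in WT replicates 1 to 3. The reads were 89, 113, 32 and 27 in WT Late libraries and 2, 5 and 0 in WT libraries. The gene was therefore near the limit of detection in WT animals and above it in every WT Late library, lowest in replicate 3. Summed over libraries and scaled to depth, WT Late held 27.1 times the reads of WT, with an exact 95% interval of 12.9 to 68.0 that covers counting error alone. For lipl-3 the log2 fold change of 2.28 (95% interval 0.98 to 3.58) missed the threshold in limma (adjusted p = 0.151), and the exact permutation test gave p = 0.0571. Without WT Late replicate 3 it was 2.75 with an adjusted p of 0.0089 from limma, and without WT Late replicate 2, which held the highest level, it was 1.92 with an adjusted p of 0.218. With each of the 6 libraries other than WT Late replicate 3 left out, lipl-3 did not pass (adjusted p of 0.218 to 0.606). The reference places srw-107 on the same strand within lipl-3, but srw-107 had 1 read in all 7 libraries together.

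The gene lipl-4 (WBGene00019376), the lipase tied to long life, is deposited at chromosome V from 6550171 to 6551817 (plus strand, 5 exons). Its rescaled FPKM was 4.86, 1.04, 1.63 and 1.35 in WT Late replicates 1 to 4, against 0, 0.1004 and 0.0684 in WT replicates 1 to 3. The reads were 117, 21, 91 and 18 in WT Late libraries and 0, 3 and 2 in WT libraries. WT Late replicate 1 was the highest, and the lowest WT Late library was 10.3 times the highest WT library. Scaled to depth, the summed reads of WT Late were 35.8 times those of WT (exact 95% interval for counting error 15.2 to 111.4). At a log2 fold change of 2.11 (95% interval 0.96 to 3.25, adjusted p = 0.127 from limma), lipl-4 did not pass, and the exact permutation test gave p = 0.0286. With a pseudocount of 0.1 in place of 0.5 it was 3.69 (adjusted p = 0.108 from limma). Without WT Late replicate 3 the adjusted p of lipl-4 was 0.0445 from limma, and with each of the other 6 libraries left out it was 0.0841 to 0.530. Without WT Late replicate 1, which held the highest level, the log2 fold change was 1.72 (adjusted p = 0.353). Both lipl-3 and lipl-4 entered the test through WT Late libraries alone. Genes that enter this way are selected for higher levels in WT Late, so a sign that holds is no sign of stability. For the same reason the permutation p-values and read ratios of lipl-3 and lipl-4 are given as description only. The filter does not alter the fold changes themselves, which were also 2.28 and 2.11 with no filter. The reference lists a tRNA and a non-coding RNA on the other strand within lipl-4, and both had 0 reads.

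**Figure D2:**
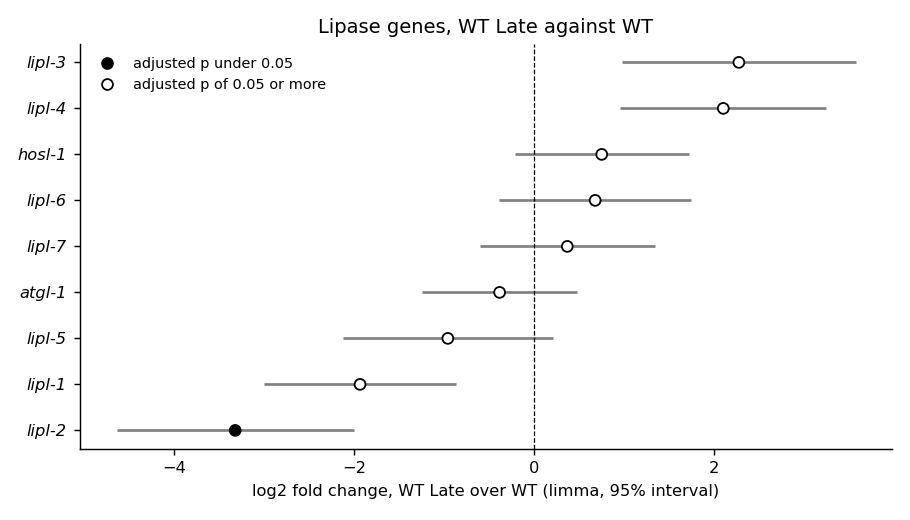
Log2 fold change of WT Late over WT for the 9 tested lipase genes (points) with 95% intervals from limma (lines); the filled point, lipl-2, has an adjusted p under 0.05 and open points do not. The intervals of lipl-1, lipl-3 and lipl-4 also lie on 1 side of 0, and these limits are not adjusted for the number of genes. The genes lipl-3 and lipl-4 passed the filter through WT Late libraries alone, which selects for values above 0.

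The most abundant lipase message was lipl-5 (WBGene00022642), an intestinal lysosomal lipase gene studied in starved worms, deposited at chromosome V from 385713 to 388090 on the plus strand. Its rescaled FPKM was 274, 172, 67.8 and 277 in WT Late replicates 1 to 4, against 412, 239 and 384 in WT replicates 1 to 3. The groups overlap, since WT replicate 2 lay below WT Late replicates 1 and 4, and the lowest value was that of WT Late replicate 3. The mean was 198 ± 99.4 (SD, n = 4) in WT Late and 345 ± 93.0 (SD, n = 3) in WT. The log2 fold change of -0.96 did not pass (95% interval -2.13 to 0.21, adjusted p = 0.654 from limma), and without WT Late replicate 3 it was -0.51. Every library held 4477 or more reads of lipl-5.

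The remaining lysosomal genes with reads, lipl-6 and lipl-7, did not pass the test. For lipl-7 (WBGene00008510), deposited at chromosome IV from 10239278 to 10241859 (minus strand) and the one lysosomal member away from chromosome V, rescaled FPKM was 3.32, 6.61, 5.81 and 2.54 in WT Late replicates 1 to 4, against 2.53, 3.23 and 3.96 in WT replicates 1 to 3. WT Late replicates 2 and 3 were the high ones. Its log2 fold change was 0.37 (95% interval -0.60 to 1.34, adjusted p = 0.853 from limma), and -0.12 without those libraries. For lipl-6 (WBGene00021963, chromosome V from 6931539 to 6934288, minus strand) the values were 0.578, 1.17, 0.750 and 0.262 in WT Late replicates 1 to 4 and 0.0300, 0.140 and 0.572 in WT replicates 1 to 3, where the groups overlap through WT replicate 3. Its log2 fold change was 0.68 (95% interval -0.39 to 1.75, adjusted p = 0.745 from limma).

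Set beside each other, the lysosomal lipases had the same leading member in both groups and differed in the makeup of the rest. The share of lipl-5 in the summed rescaled FPKM of lipl-1 to lipl-8 was 86.3% to 97.1% in WT Late libraries and 91.9% to 96.3% in WT libraries. Of what remained, lipl-1 and lipl-2 together made up 15.2%, 0%, 18.9% and 25.8% in WT Late replicates 1 to 4, against 83.4%, 78.6% and 86.4% in WT replicates 1 to 3. The genes lipl-3 and lipl-4 together made up 58.0%, 45.2%, 20.3% and 40.2% of it in WT Late replicates 1 to 4, against 0.523%, 1.54% and 0.203% in WT replicates 1 to 3. These shares restate the levels above within each library, free of the scaling between libraries, and are given without a test. WT Late replicate 3 had the smallest share of lipl-3 and lipl-4 among WT Late libraries, and it lay above all WT libraries. Both genes passed the filter through WT Late libraries alone, so this separation of shares is not further support. The sum without lipl-5 was 8.23 to 14.5 in WT Late libraries and 15.9 to 33.7 in WT libraries.

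**Figure D3:**
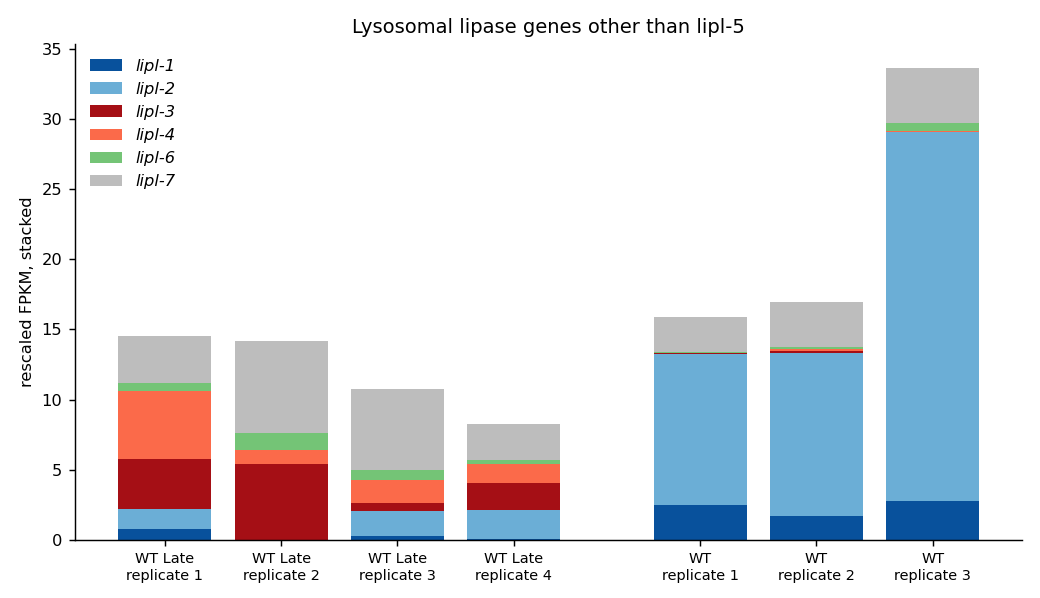
Rescaled FPKM of the lysosomal lipase genes other than lipl-5, stacked by gene, for the 4 WT Late libraries (left) and the 3 WT libraries (right). The blue part, lipl-1 and lipl-2, is the largest in WT bars at 78.6% to 86.4%, and the red part, lipl-3 and lipl-4, reaches 20.3% to 58.0% in WT Late bars against 1.54% at most in WT bars.

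In order of median level per length, WT Late animals had lipl-5, lipl-7, atgl-1, hosl-1, lipl-3, lipl-2, lipl-4, lipl-6 and lipl-1. Only lipl-5 had a range apart from its neighbour, and the other 8 genes overlapped from each to the next, at medians of 0.178 to 4.56. In WT animals the order was lipl-5, lipl-2, atgl-1, lipl-7, lipl-1, hosl-1, lipl-6, lipl-3 and lipl-4. Of these neighbours, lipl-5 and lipl-2, lipl-2 and atgl-1, and hosl-1 and lipl-6 had ranges that did not overlap.

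The cytosolic lipases had smaller log2 fold changes than lipl-1 to lipl-4, and neither passed. The gene atgl-1 (WBGene00015484), whose product takes the first fatty acid off triglyceride at the lipid droplet, is deposited at chromosome III from 6415774 to 6421885 (minus strand). Its levels were 3.18, 3.84, 2.99 and 4.71 in WT Late replicates 1 to 4, against 3.69, 5.41 and 5.77 in WT replicates 1 to 3. The groups overlap, with a log2 fold change of -0.38 (95% interval -1.24 to 0.48, adjusted p = 0.8287 from limma). The gene hosl-1 (WBGene00016704) is deposited at chromosome X from 4637242 to 4643695 (plus strand). It was at 2.76, 3.55, 1.93 and 3.05 in WT Late replicates 1 to 4, against 0.966, 2.11 and 1.40 in WT replicates 1 to 3. WT Late replicate 3 lay below WT replicate 2 and the other WT Late libraries lay above all WT libraries. For hosl-1 the log2 fold change was 0.75 (95% interval -0.21 to 1.72, adjusted p = 0.674 from limma). The ratio of atgl-1 to hosl-1 within a library is altered by no scaling between libraries. It was 1.15, 1.08, 1.54 and 1.54 in WT Late replicates 1 to 4, against 3.82, 2.57 and 4.11 in WT replicates 1 to 3. The groups did not overlap in this ratio. How often ratios of other gene pairs separate the groups was not counted, so the ratio is given as description only.

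Whole-animal RNA does not separate fewer cells of a type from less RNA per cell. The 8 intestine markers, which include the factor elt-2 and the brush border actin act-5, were all tested and 0 were called, with a median log2 fold change of -0.21 and 0 with an unadjusted p under 0.05. Their summed rescaled FPKM was 580 to 3368 in WT Late libraries and 1504 to 2851 in WT libraries. Relative to the mean log2 level of these markers, lipl-2 was lower in WT Late by 3.14 (mean -4.74 in WT Late, -1.60 in WT), lipl-3 and lipl-4 were higher by 2.46 and 2.29, and lipl-1 was at -1.75. On the same scale lipl-5 was at -0.78 (mean 2.07 in WT Late, 2.85 in WT), lipl-6 at 0.86, lipl-7 at 0.55, atgl-1 at -0.20 and hosl-1 at 0.94. Markers of epidermis, muscle, neurons, germline and sperm had medians of -0.10, -0.85, -0.05, -0.69 and -0.50, and of their 25 tested members 1 was called, dpy-7, a cuticle collagen gene, with a log2 fold change of 2.96 (adjusted p = 0.00471 from limma). All 4 adult and late L4 markers had negative log2 fold changes, and so had all 5 germline and all 4 tested sperm markers. Negative values were also held by 5 of 8 intestine, 4 of 6 epidermis, 4 of 5 muscle and 3 of 5 neuron markers. Over all tested genes the median log2 fold change was -0.13, and 0.182% were called lower and 0.667% higher. The yolk protein genes vit-5 and vit-6 were called lower, with log2 fold changes of -3.24 and -2.48 (adjusted p = 0.0079 and 0.0492 from limma), while vit-2 was at -2.34 and the adult collagen gene col-19 at -1.15 without a call. Their summed rescaled FPKM was 237 to 1111 in WT Late libraries and 1112 to 3288 in WT libraries, and none was at 0. WT replicate 3 had the highest level of lipl-2, vit-2, vit-5 and vit-6, while col-19 was highest in WT replicate 1. Among WT libraries lipl-2 was lowest in replicate 1, and vit-2, vit-5, vit-6 and col-19 were lowest in replicate 2. The part of developmental timing within L4 in the lipase values was not tested.

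Among 11 transcription factors and lipid signals tied to lysosomal lipolysis, 1 was called higher and 0 were called lower, with a median log2 fold change of 0.26. Across all tested genes 0.667% were called higher and 0.182% lower. The called gene was mxl-3, the repressor of lipl-1 and lipl-3 in fed worms. Its rescaled FPKM was 68.8, 64.3, 29.9 and 62.7 in WT Late replicates 1 to 4, against 7.73, 10.8 and 6.88 in WT replicates 1 to 3, so the groups were far apart and WT Late replicate 3 was the lowest of its group. By limma mxl-3 rose by a log2 fold change of 2.62 (adjusted p = 0.00608). It passed in 15 of 17 alternatives, and the adjusted p was 0.0611 without WT replicate 1 and 0.0606 without WT replicate 3. Of the lipase genes that MXL-3 represses in fed worms, lipl-1 was at -1.93 and lipl-3 at 2.28, opposite in sign and neither called. A link of mxl-3 to these values was not tested. The activator hlh-30 had 9.65, 6.11, 6.38 and 11.5 in WT Late replicates 1 to 4 and 9.87, 12.96 and 18.3 in WT replicates 1 to 3, a log2 fold change of -0.68 that did not pass (adjusted p = 0.655).

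The genes that act with LIPL-4 in its longevity pathway did not pass. The fatty acid chaperone gene lbp-8 was at 0.599, 7.73, 1.81 and 0.620 in WT Late replicates 1 to 4 and 0.622, 0 and 0.282 in WT replicates 1 to 3. Its log2 fold change of 1.53 (adjusted p = 0.557 from limma) was 0.90 without WT Late replicate 2 (adjusted p = 0.826), and the groups overlap. The receptor genes nhr-49 and nhr-80 had log2 fold changes of 0.13 and 0.49 (adjusted p = 0.941 and 0.757). The gene lid-1, which encodes the lipid droplet partner of ATGL-1, was at 10.3, 3.14, 15.1 and 8.23 in WT Late replicates 1 to 4 and 4.07, 5.58 and 5.38 in WT replicates 1 to 3, with a log2 fold change of 0.65 (adjusted p = 0.753).

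Of 10 measured genes of lipid droplet proteins and triglyceride synthesis, 0 were called. At an unadjusted p under 0.05 limma counted 3, all higher in WT Late animals, where 4.08% of all tested genes were. These 3 genes are named here after their values were seen. They encode late enzymes of triglyceride synthesis, dgat-2 and mboa-2 as diacylglycerol acyltransferases and lpin-1 as the lipin phosphatase before them. The gene dgat-2 was at 160, 122, 40.5 and 109 in WT Late replicates 1 to 4 and 30.5, 16.8 and 31.2 in WT replicates 1 to 3 (log2 fold change 1.92, adjusted p = 0.118 from limma). The gene mboa-2 was at 43.3, 26.3, 24.4 and 30.3 in WT Late and 10.3, 8.85 and 13.7 in WT (1.45, adjusted p = 0.0935), and lpin-1 was at 27.8, 23.2, 22.7 and 27.9 in WT Late and 8.72, 10.96 and 9.47 in WT (1.34, adjusted p = 0.0874). In each of the 3 genes all WT Late libraries lay above all WT libraries, as for 4.67% of all tested genes. Without WT Late replicate 3 limma called all 3, dgat-2 at 2.33 (adjusted p = 0.00151), mboa-2 at 1.55 (0.0169) and lpin-1 at 1.39 (0.0168). With each of the other 6 libraries left out in turn none of the 3 was called, with adjusted p of at least 0.179.

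Among 14 genes of the lysosomal membrane and lysosomal hydrolases other than lipases, 0 were called higher and 1 was called lower. Of all tested genes 0.182% were called lower. The median log2 fold change of the list was -0.13. The called gene was asm-3, an acid sphingomyelinase gene, at 0, 0, 0.0722 and 0.303 in WT Late replicates 1 to 4 and 4.92, 2.79 and 4.96 in WT replicates 1 to 3. Its log2 fold change was -2.98 (adjusted p = 0.00849 from limma). Because asm-3 passed the filter through WT libraries alone, it could not be tested with any WT library left out. This call is therefore not support for the list as a whole.

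**Figure D4:**
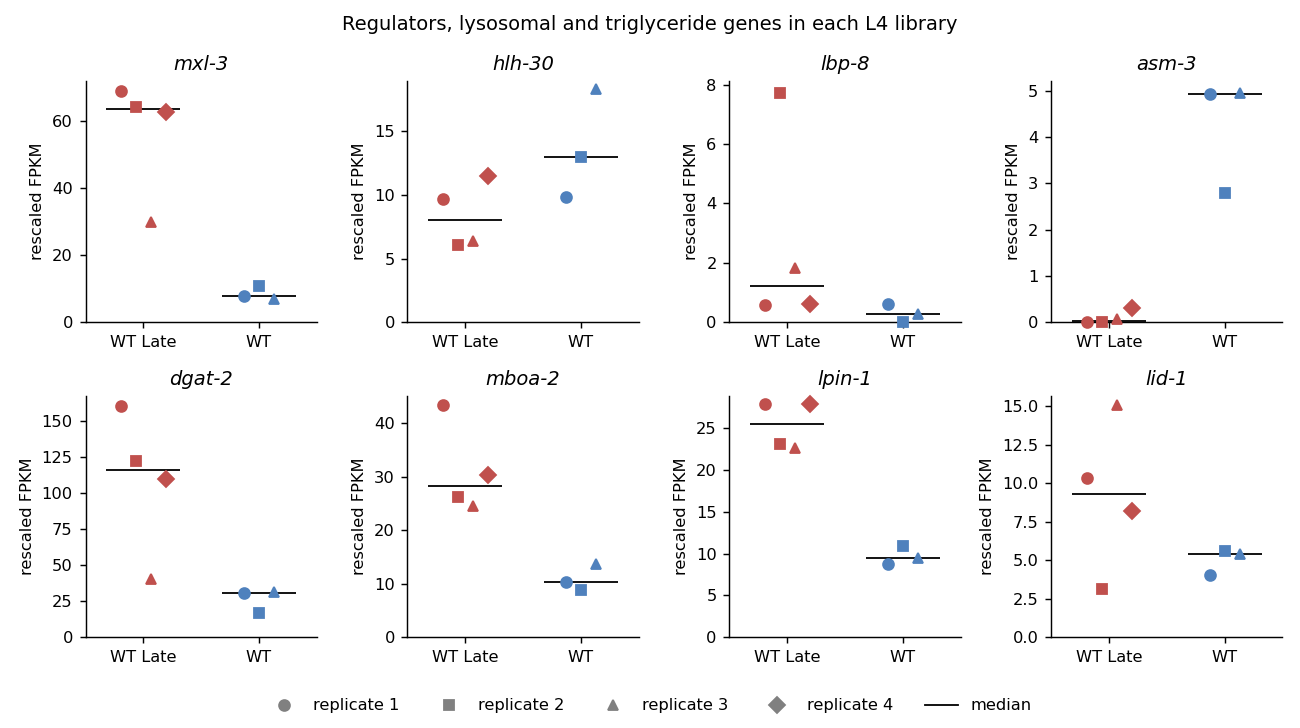
Rescaled FPKM (linear axes from 0) of 8 genes around the lipases in the 4 WT Late libraries (left of each panel) and the 3 WT libraries (right), with the group median as a line. The regulator mxl-3 lay at 29.9 to 68.8 in WT Late against 6.88 to 10.8 in WT, asm-3 lay at 0.303 or less against 2.79 or more, and lbp-8 and lid-1 overlapped between groups.

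By the rule set for called lipases, the 3 genes whose log2 levels followed lipl-2 most closely over the 7 libraries were fzr-1, pept-2 and abt-2, with Pearson r of 0.997, 0.997 and 0.995. They encode an activator of the anaphase-promoting complex, a peptide transporter and an ABC transporter. All had lower levels in WT Late replicate 2 than in any other library and their highest in WT replicate 3, as lipl-2 did. Their log2 fold changes were -1.43, -1.19 and -1.17, and none was called. These correlations describe 7 libraries that share the same 2 groups and depth differences.

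**Figure D5:**
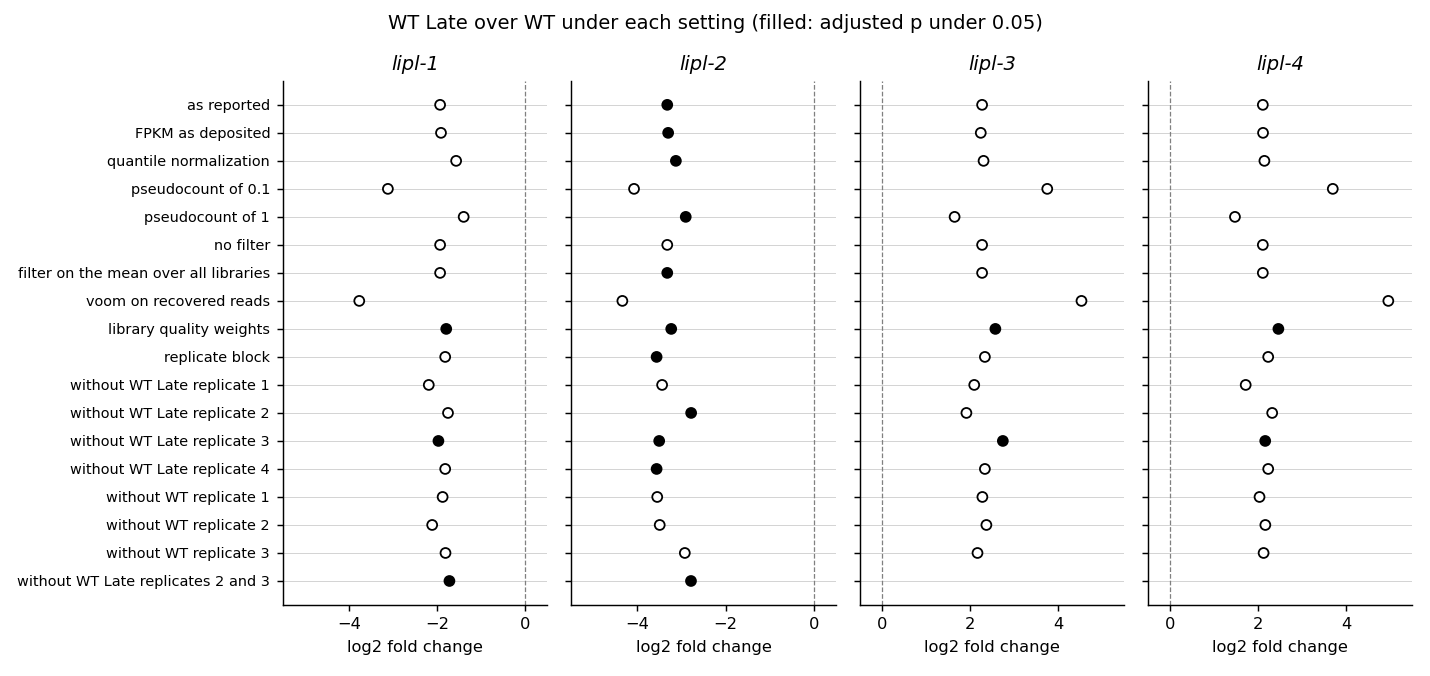
Log2 fold change of WT Late over WT for lipl-1, lipl-2, lipl-3 and lipl-4 as reported (top) and under each alternative; filled points have an adjusted p under 0.05, and a missing point could not be tested. The genes lipl-3 and lipl-4 passed the filter through WT Late libraries alone, which selects for points above 0. The points of lipl-1, lipl-3 and lipl-4 become filled without WT Late replicate 3 or with library quality weights, and lipl-1 also without WT Late replicates 2 and 3.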

How the data were processed

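Total RNA of whole L4 animals was sequenced by Novogene for the authors. The authors deposited FPKM for each gene and library in 1 table, with gene length and coordinates. The aligner, the counter and the build were not given in the sources used here. WBcel235 (Ensembl release 115) served for annotation, in which 46597 genes overlapped their deposited place on the same strand, and exon numbers are from it. FPKM times gene length gave whole multiples of a step for 100% of nonzero values (within 0.02), which gave the reads per gene. Whether counting used strand is not stated.

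Each library was rescaled by its median-of-ratios factor (0.848 to 1.38). limma 3.58.1 in R 4.3.3 (lmFit, and eBayes with a variance trend) was run on all genes that passed the filter. Exact permutation tests used Python 3.11.15. Intervals on reads cover counting error only. The procedure was tested on simulated data. The members and lists were chosen with earlier results of these data known. All lipases are named. Of each list, called genes are named, together with hlh-30, mxl-3, lbp-8, nhr-49, nhr-80 and lid-1. Chosen after their values were seen were dgat-2, mboa-2, lpin-1, dhs-3, lips-6, vit-2 and col-19, while elt-2 and act-5 stand as examples of their list. Of 11 droplet and 19 other lipase-related genes listed, 10 and 18 were found by name. Alternatives were other scalings, pseudocounts, filters, voom, library weights, a replicate block and each library left out.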

Additional observations from a re-analysis of the deposited data

Results flagged for a closer look

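Among 12 sets of WT Late values, 1 had a single distant library, and chance alone marks about 1 set in 20. On the log2 scale lipl-2 was at -1 in WT Late replicate 2, the value of 0 reads with a pseudocount of 0.5, and the gap to the next library was 0.841 of the range of the group. This library also had the fewest genes with a read, 11069.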

How the results depend on the processing

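With 3 against 4 libraries, limma called 88 genes higher and 24 lower. Without each library in turn these counts ranged from 23 to 368 and from 5 to 282, and the lipases called ranged from 0 to 2 higher and from 0 to 2 lower. With library quality weights 500 and 558 genes were called, with lipl-3 and lipl-4 as 2 higher and lipl-1 and lipl-2 as 2 lower lipases. With no filter 42 and 9 genes were called and 0 lipases lower, and 0 lipases were also lower with a pseudocount of 0.1 or voom on recovered reads. Quantile normalization gave 43 lower genes. Without WT Late replicates 2 and 3 together, an alternative chosen after seeing the data, 443 and 454 genes and 2 lower lipases were called, lipl-7 turned to -0.12, and lipl-3, lipl-4 and lipl-6 failed the filter. With a replicate block, in which WT Late replicate 4 adds nothing to the contrast, 67 and 32 genes were called and lipl-2 was at -3.56 (adjusted p = 0.0166 from limma). Same-numbered libraries had deviations that correlated at 0.237, -0.092 and -0.185, and differently numbered ones at -0.326 to 0.314. With so few pairs this check cannot decide whether same-numbered libraries were handled together. With each library left out in turn nhr-49 ranged from -0.091 (without WT replicate 1) to 0.26. Depth limits lipl-1, lipl-3, lipl-4 and lipl-6 most, at 0 to 117 reads a library.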

Other observations

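Of the other lipase-related genes, 18 were in the table and 10 were tested, of which 0 were called. The median log2 fold change was -0.23. Where 8.89% of all tested genes had an unadjusted p under 0.05 in limma, 1 of these 10 had. That gene, lips-6, had a rescaled FPKM of 8.11, 5.04, 10.3 and 4.67 in WT Late replicates 1 to 4 and 1.63, 2.45 and 1.10 in WT replicates 1 to 3, with a log2 fold change of 1.74 (adjusted p = 0.14).

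The protein-coding genes next to lipl-1, lipl-2, lipl-3 and lipl-4 were looked up in WBcel235. Those tested were nid-1 and dhrs-4 beside lipl-1 (log2 fold changes -1.19 and 0.24), ztf-7 beside lipl-2 (-0.57), nhr-210 beside lipl-3 (0.33) and K04A8.20 beside lipl-4 (1.17), and none was called. The last of these lies 378 bases from lipl-4.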
